A study of Oryctolagus cuniculus with 27 samples.

Results

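A set of 8 genes of leukocyte adhesion was followed through the deposited counts: the integrin chains ITGB2, ITGAM, ITGAX, ITGAL and ITGA4, and the vessel-wall molecules VCAM1, ICAM1 and SELP. They were chosen by name, with earlier results of these data known. All 8 were found among the 31346 genes of the tables for aortic valve, ascending aorta and myocardium. Leukocytes in flowing blood first roll on selectins that the activated endothelium displays, then stop when their integrins, switched to a binding shape by signals inside the cell, grip immunoglobulin-like ligands on the endothelium, and finally cross the wall. ITGB2 is the shared beta chain that pairs with ITGAL to form LFA-1, with ITGAM to form Mac-1 and with ITGAX to form the complex known on dendritic cells and macrophages as CD11c/CD18, and ICAM1 is their best known endothelial ligand. ITGA4 pairs with ITGB1 or ITGB7 and binds VCAM1, and SELP, P-selectin, binds the leukocyte glycoprotein SELPLG. These steps are studied in lipid-driven disease of arteries and of the aortic valve, where monocytes that enter the tissue become macrophages.

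The animals were wild-type New Zealand male rabbits on normal chow or on chow with 1% cholesterol and, per kg and day, 3500 IU of ergocalciferol, which is vitamin D2. The libraries came from aortic valve cusps, 1 cusp per animal, of controls (n = 4) and of animals fed the diet for 2, 4 or 7 weeks (n = 4 each), from ascending aorta (3 controls, 2 on the diet) and from left ventricular myocardium (3 controls, 3 on the diet). Neither ages nor, for aorta and myocardium, diet durations are given in the labels, and the stated time points of the control valves differ between the titles and the design text. By animal numbers the 3 diet myocardium libraries share animals with the 7-week valves, 2 of the 3 control myocardia share animals with control valves, and 1 of the 2 diet aortas shares its animal with a 2-week valve.

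Library totals ran from 8.46 to 19.999 M counts in valve, 11.5 to 16.1 M in aorta and 13.954 to 17.3 M in myocardium. Levels are given as CPM, counts scaled to a fixed library total, which do not correct for transcript length, so levels are compared between samples and never between genes. Log2 fold changes with their standard errors (SE) and adjusted p-values come from edgeR's quasi-likelihood F test whose p-values were adjusted by Benjamini-Hochberg across every gene in the fit, and a gene is said to have changed at an adjusted p under 0.05. The summed level of cardiomyocyte markers, which shows heart muscle in the cusps, was 8860 to 39970 CPM in control valves, 1449 to 6478 CPM at 2 weeks, 2883 to 27519 CPM at 4 weeks and 9476 to 41645 CPM at 7 weeks. The share of counts on the ribosomal RNA gene RN18S was 0.476% to 2.06% in controls, 1.36% to 1.97% at 2 weeks, 0.282% to 0.516% at 4 weeks and 0.510% to 2.20% at 7 weeks. Control replicate 1 was the highest control valve in all 8 genes and 4-week replicate 3 the highest 4-week valve in 6 of them, and counts of changed genes are given with and without them.

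Of the 8 genes, ITGB2, ITGAM, ITGAX, ITGAL and ICAM1 rose in the valve after 4 weeks of diet, and the same 5 with VCAM1 rose after 7 weeks. The integrin chains of the ITGB2 family moved most, by 7.24- to 17.97-fold at 4 weeks, ICAM1 and VCAM1 by 2.28- to 3.07-fold where they passed, and none of the 8 changed after 2 weeks. The 4-week calls depended on single libraries: 0 of the 8 passed when 4-week replicate 3 was left out, and 0 when control replicate 2, 3 or 4 was, and in those fits 0 of all genes tested passed. The log2 differences stayed positive over the 8 fits that left out 1 library, at 2.65 to 3.86 for ITGB2, 2.41 to 3.98 for ITGAM, 3.08 to 5.06 for ITGAX, 2.37 to 3.15 for ITGAL and 1.01 to 1.41 for ICAM1. The plot of log2 fold changes sets these values side by side for the 3 tissues.

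**Figure D1:**
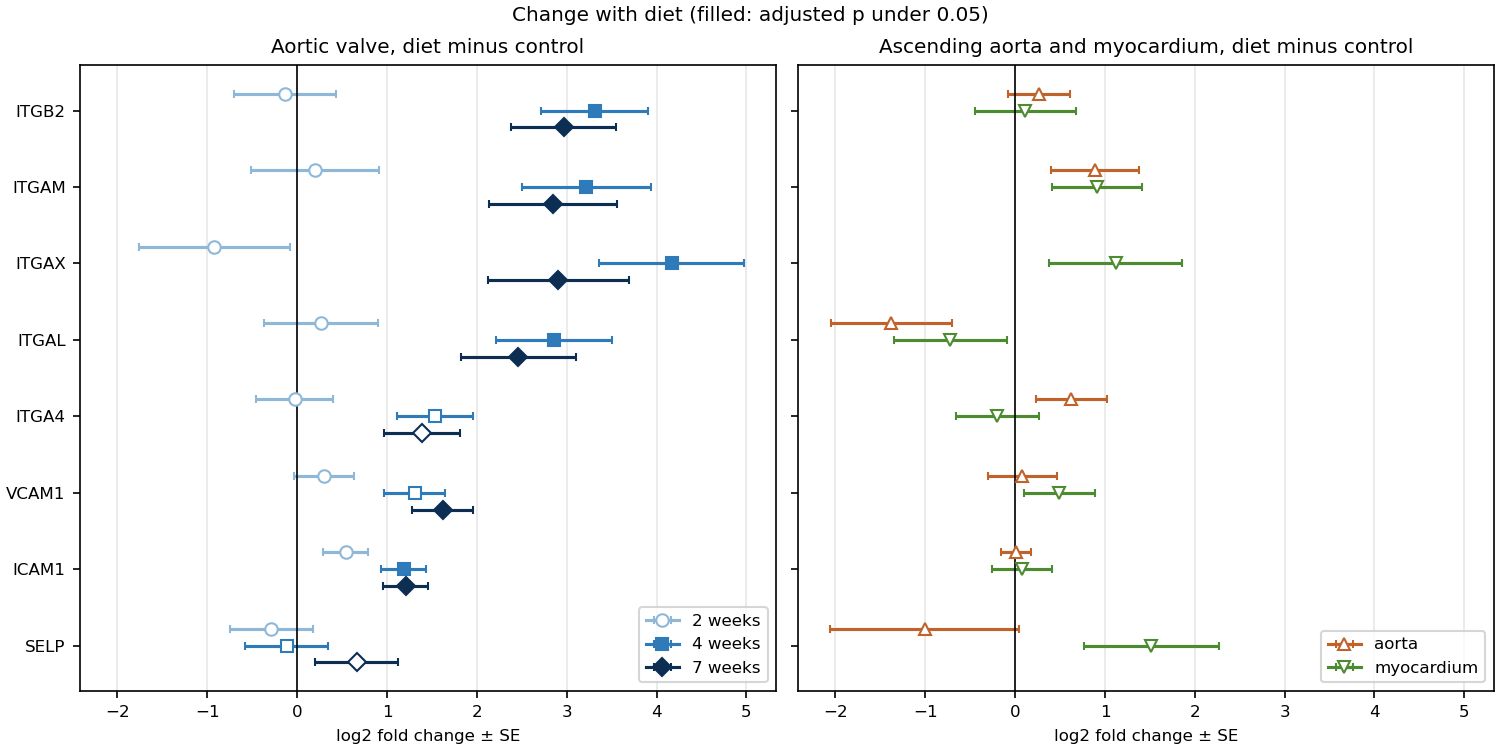
Log2 fold change of diet against control for the 8 genes on the x axis, with bars of 1 SE, in the valve after 2, 4 and 7 weeks (left) and in ascending aorta and myocardium (right). Filled symbols passed an adjusted p of 0.05: 5 genes at 4 weeks and 6 at 7 weeks in the valve, and none in the other tissues. ITGAX has no point in the aorta, where its counts were too low to test.

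ITGB2, the chain common to the leukocyte beta-2 integrins, stood at 19.4, 5.63, 4.89 and 8.53 CPM in the 4 control valves. After 2 weeks it stood at 6.04, 13.5, 2.74 and 13.8 CPM, after 4 weeks at 75.7, 94.995, 236 and 28.7 CPM, and after 7 weeks at 80.4, 54.5, 68.3 and 100.011 CPM. Every 4-week and 7-week library lay above every control and 2-week library, and the 2-week libraries overlapped the controls. The difference from control was 3.31 ± 0.60 (SE) on the log2 scale at 4 weeks, a 9.94-fold rise (adjusted p = 0.0192, edgeR), and 2.97 ± 0.59 at 7 weeks, a 7.81-fold rise (adjusted p = 0.0101). At 2 weeks it was -0.14 ± 0.56 (adjusted p = 0.941). In bulk tissue, more cells of a type and more RNA per cell cannot be told apart.

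ITGAM, the alpha chain of Mac-1 that monocytes, macrophages and neutrophils carry, stood at 4.62, 0.960, 1.04 and 1.46 CPM in controls. It stood at 1.08, 4.25, 0.913 and 3.30 CPM after 2 weeks, at 6.66, 23.9, 50.4 and 5.92 CPM after 4 weeks and at 20.2, 6.03, 10.99 and 22.96 CPM after 7 weeks. All 8 libraries of 4 and 7 weeks lay above the highest control, which was replicate 1 and stood apart from the other 3 controls. The log2 difference from control was 3.22 ± 0.72 at 4 weeks (9.31-fold, adjusted p = 0.0347) and 2.85 ± 0.71 at 7 weeks (7.20-fold, adjusted p = 0.0271), against 0.20 ± 0.71 at 2 weeks.

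ITGAX, the alpha chain known as CD11c, showed the largest fold at 4 weeks among the 8. Its levels were 3.78, 0.384, 0.222 and 1.90 CPM in controls, 0.464, 1.26, 0.326 and 1.24 CPM after 2 weeks, 15.9, 20.995, 85.3 and 7.06 CPM after 4 weeks, and 14.2, 6.50, 10.3 and 16.95 CPM after 7 weeks. The control values rest on 3 to 53.05 counts per library and the 2-week values on 5 to 24.82. Again the 4-week and 7-week libraries did not overlap the controls, and 4-week replicate 3 was the highest of all 27 libraries. The log2 difference was 4.17 ± 0.81 at 4 weeks (17.97-fold, adjusted p = 0.0196) and 2.91 ± 0.78 at 7 weeks (7.51-fold, adjusted p = 0.0348), and -0.92 ± 0.84 at 2 weeks (adjusted p = 0.660).

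The counts of ITGAX and ITGAM are not fully separate. ITGAM, ITGAX and ITGAD, a related alpha chain, lie next to each other in the RefSeq annotation of the rabbit assembly mOryCun1.1, and the authors' estimated counts were not whole numbers for ITGAX and ITGAD in 13 of 27 libraries each and for ITGAM in 5. The sum of the 3 genes was whole in all 27, within 0.03 counts, so reads were divided among them and the size of each gene's own change is uncertain to that extent. Their summed level was 8.62, 1.34, 2.74 and 4.06 CPM in controls, 22.9, 45.4, 139 and 13.3 CPM at 4 weeks and 34.8, 12.5, 21.8 and 40.5 CPM at 7 weeks, with no overlap between control and either diet group.

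ITGAL, the alpha chain of LFA-1 that lymphocytes and most other leukocytes carry, stood at 3.49, 0.960, 2.67 and 2.44 CPM in controls. It stood at 2.01, 6.30, 0.326 and 3.55 CPM after 2 weeks, at 13.1, 22.6, 38.3 and 6.08 CPM after 4 weeks and at 12.1, 8.51, 12.1 and 21.2 CPM after 7 weeks. The lowest 4-week and 7-week libraries lay above the highest control, while 2-week replicate 2 lay above 4-week replicate 4. The log2 difference was 2.86 ± 0.65 at 4 weeks (7.24-fold, adjusted p = 0.0349), 2.46 ± 0.64 at 7 weeks (5.51-fold, adjusted p = 0.0306) and 0.27 ± 0.63 at 2 weeks.

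ITGA4, the alpha chain of the VCAM1 receptor VLA-4, did not pass against control at any duration. It stood at 3.20, 1.98, 2.15 and 1.87 CPM in controls, 1.32, 3.98, 1.43 and 2.60 CPM after 2 weeks, 5.35, 8.05, 13.5 and 3.64 CPM after 4 weeks and 11.2, 2.36, 5.63 and 6.24 CPM after 7 weeks. All 4-week libraries were above all controls, and 3 of 4 were at 7 weeks, where replicate 2 lay among the controls. The log2 difference was 1.54 ± 0.42 at 4 weeks (adjusted p = 0.0772) and 1.39 ± 0.42 at 7 weeks (adjusted p = 0.0558). Of its 2 beta partners, ITGB7 rose at 7 weeks by 0.84 ± 0.20 on the log2 scale (adjusted p = 0.0231), and ITGB1, which many tissue cells carry, gave -0.60 ± 0.24 (adjusted p = 0.125).

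**Figure D2:**
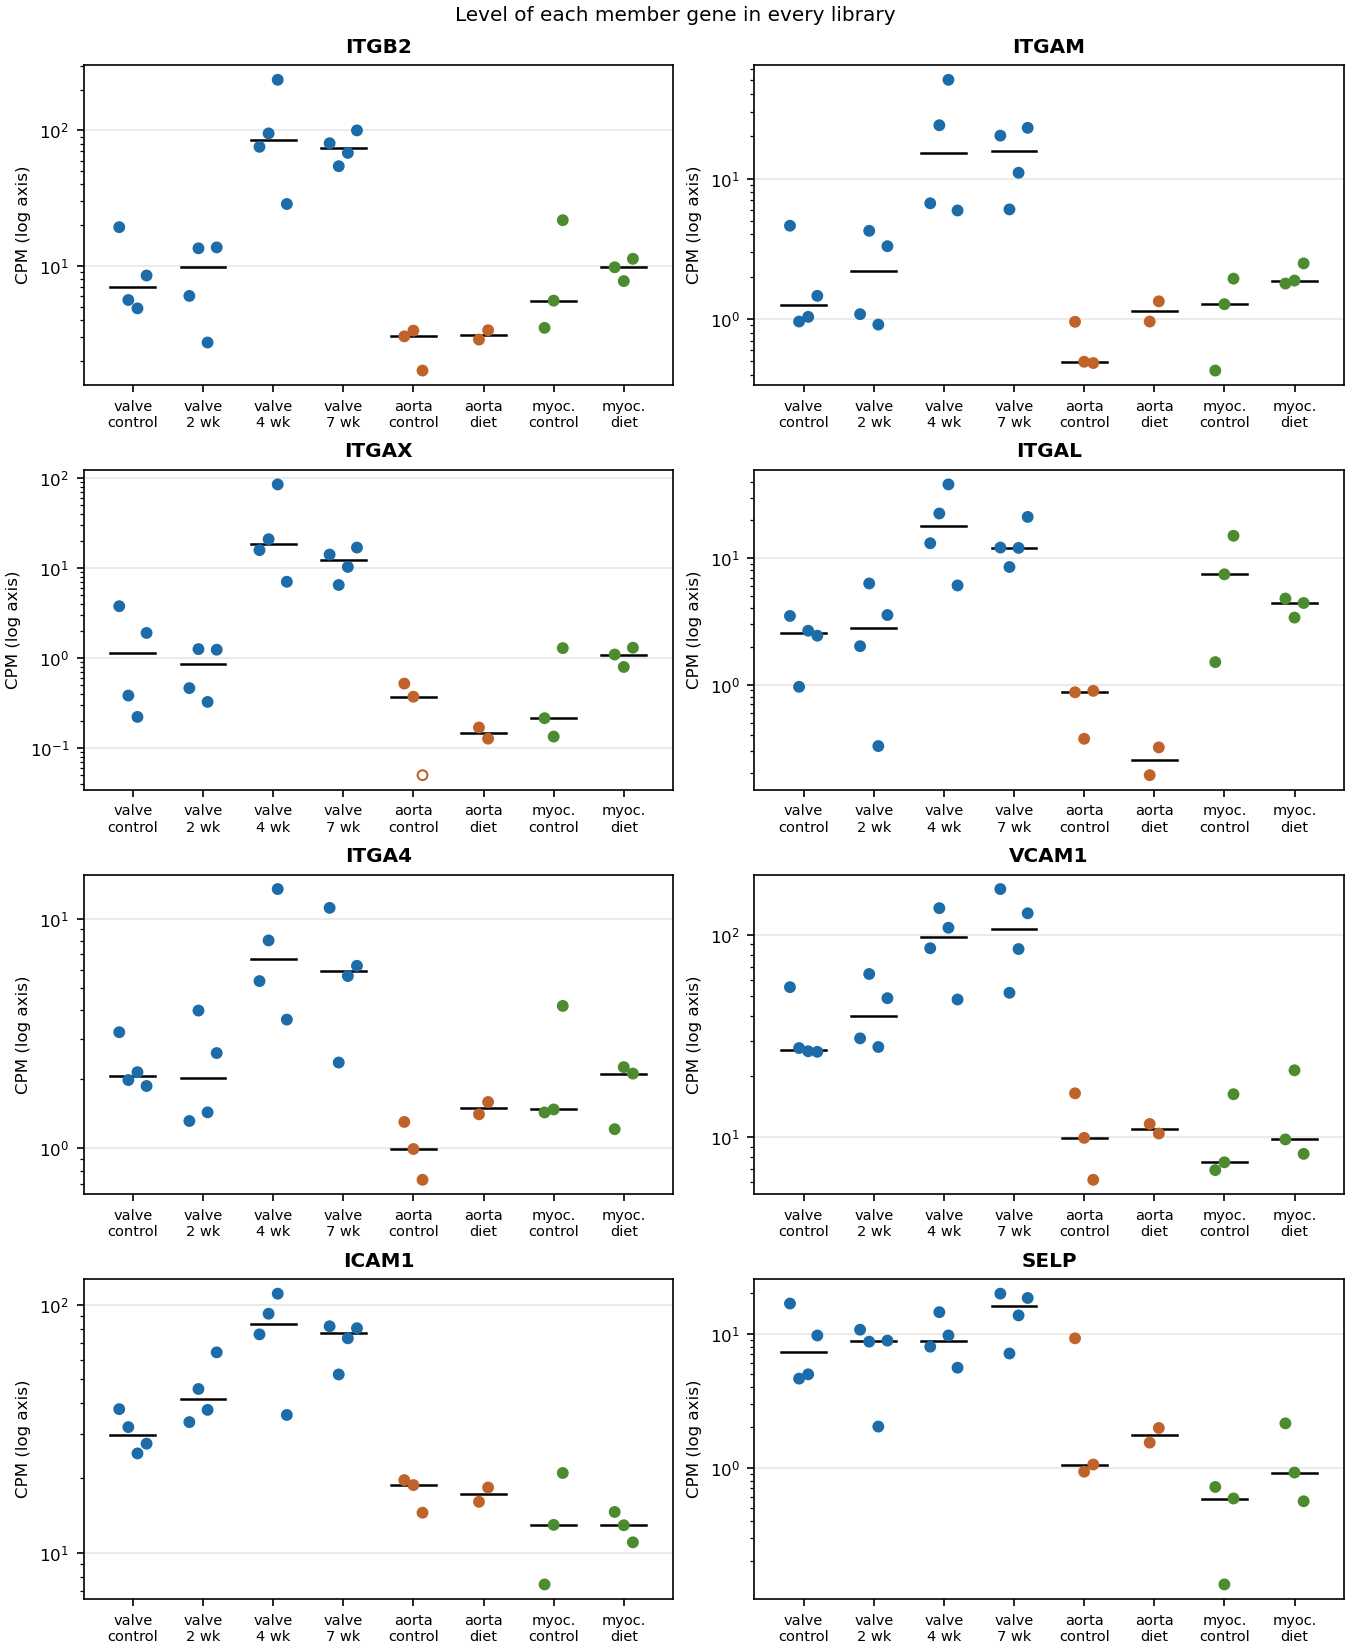
CPM on a log axis of each of the 8 genes in all 27 libraries, by tissue and group; each point is 1 library, the bar is the group median, and the open circle marks 1 aorta library listed at 0, drawn at 0.05. For ITGB2, ITGAM, ITGAX and ITGAL all 4-week and 7-week valve libraries lie above all control valves. ITGA4 overlaps the controls at 7 weeks, ICAM1 at 4 weeks, and VCAM1 and SELP at both.

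VCAM1, the endothelial ligand of ITGA4 integrins, stood at 55.3, 27.6, 26.7 and 26.5 CPM in controls. It stood at 30.9, 64.3, 27.98 and 48.8 CPM after 2 weeks, at 86.2, 136, 109 and 48.1 CPM after 4 weeks and at 169, 51.9, 85.4 and 128 CPM after 7 weeks. In all, 3 of 4 libraries lay above the highest control at 4 weeks and at 7 weeks, and in each group the remaining one lay below control replicate 1 only. The log2 difference was 0.30 ± 0.33 at 2 weeks (adjusted p = 0.738), 1.31 ± 0.34 at 4 weeks (adjusted p = 0.0592) and 1.62 ± 0.34 at 7 weeks, a 3.07-fold rise (adjusted p = 0.0130).

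ICAM1, the ligand of LFA-1 and Mac-1, stood at 37.96, 32.1, 25.2 and 27.5 CPM in controls. It stood at 33.7, 45.8, 37.7 and 64.3 CPM after 2 weeks, at 76.002, 92.1, 111 and 35.96 CPM after 4 weeks and at 81.9, 52.4, 73.3 and 80.5 CPM after 7 weeks. All 7-week libraries were above all controls, and 4-week replicate 4 was the only 4-week library among them. The log2 difference was 0.54 ± 0.25 at 2 weeks (adjusted p = 0.287), 1.19 ± 0.25 at 4 weeks (2.28-fold, adjusted p = 0.0252) and 1.21 ± 0.25 at 7 weeks (2.31-fold, adjusted p = 0.0120). Its counts were not whole in 5 of 27 libraries, so some of its reads were shared with another row of the table.

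SELP, which endothelium and platelets store in granules and move to the surface on activation, did not pass at any duration. It stood at 16.7, 4.61, 4.96 and 9.67 CPM in controls, 10.7, 8.69, 2.02 and 8.85 CPM after 2 weeks, 7.98, 14.4, 9.67 and 5.56 CPM after 4 weeks and 19.8, 7.09, 13.6 and 18.4 CPM after 7 weeks. The groups overlapped at each duration. The log2 difference was -0.29 ± 0.46 at 2 weeks, -0.12 ± 0.46 at 4 weeks and 0.66 ± 0.46 at 7 weeks (adjusted p = 0.385). The 95% interval of the difference, from its SE, ran from -1.02 to 0.79 at 4 weeks and from -0.24 to 1.57 at 7 weeks, so a rise of the size of that in ICAM1 lies outside the former and inside the latter. Of the platelet markers, GP9 had at most 1 count in any library, and ITGA2B ran from 2.01 to 8.64 CPM over the 16 valves; the part of platelets in the level of SELP was not tested.

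SELE, the other endothelial selectin, is in the full valve table and not in the authors' filtered one. It stood at 1.21, 0.0640, 0.444 and 0.569 CPM in controls and 4.37, 0.946, 1.26 and 1.03 CPM at 7 weeks, from 1 to 67 counts per library. Its log2 difference was 1.64 ± 0.76 at 7 weeks (adjusted p = 0.186) and 0.32 ± 0.78 at 4 weeks. SELPLG, the ligand of P-selectin on leukocytes, was the selectin or selectin ligand that rose among the 6 of 7 listed that were tested: by 2.48 ± 0.42 at 4 weeks (adjusted p = 0.0192) and 2.39 ± 0.42 at 7 weeks (adjusted p = 0.00686).

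Set against all genes, 0 of 8 changed at 2 weeks, where 0.0250% of 15973 genes tested did. At 4 weeks 5 of 8 were higher, with 1.94% of all genes higher, and at 7 weeks 6 of 8 were higher, with 5.20% of all genes higher and 2.60% lower. The median log2 difference of the 8 was 0.08 at 2 weeks, 2.20 at 4 weeks and 2.04 at 7 weeks, and that of all genes tested was 0.02, -0.03 and -0.01. With control replicate 1 and 4-week replicate 3 both left out, 3 of 8 (ITGAM, ITGAX and ITGB2) passed at 4 weeks. With the RN18S share or the cardiomyocyte marker score as a covariate, or with only the 8 libraries compared, 0 of 8 passed at 4 weeks. At 7 weeks ITGB2, VCAM1 and ICAM1 passed in all 8 fits that left out 1 library, and the count fell to those 3 without control replicate 2, 3 or 4 or without 7-week replicate 4.

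**Figure D3:**
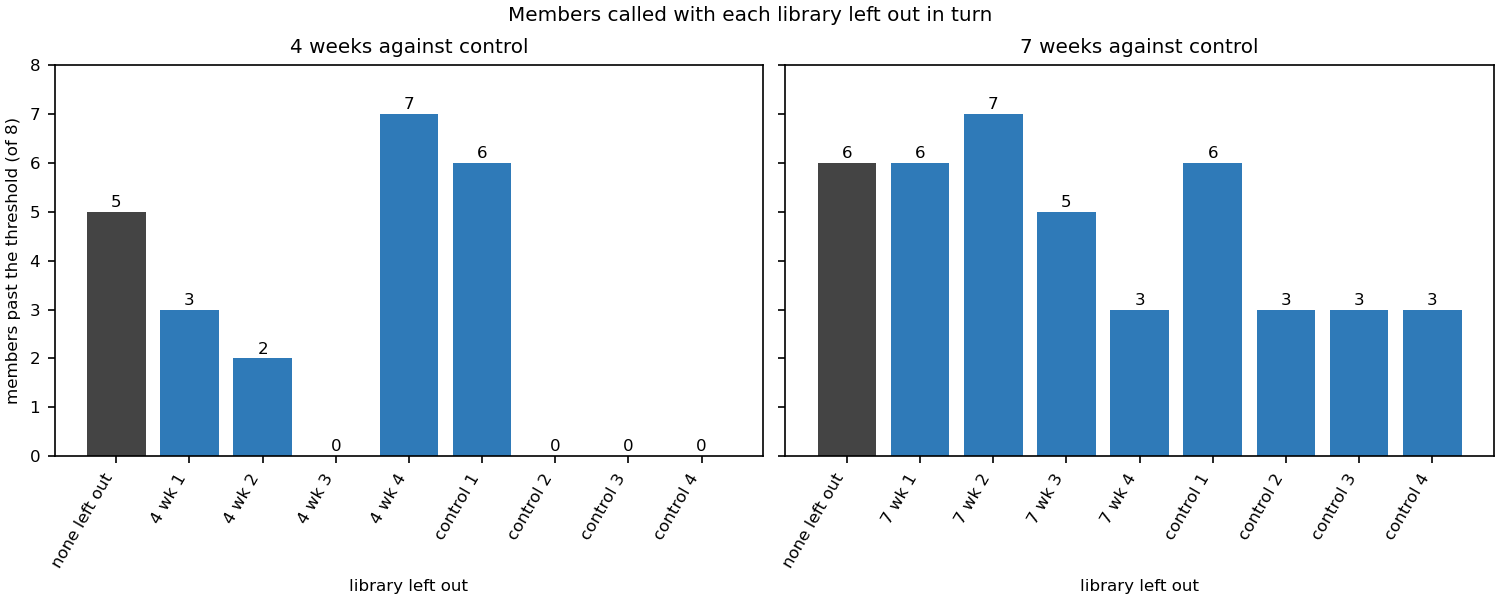
Number of the 8 genes with an adjusted p under 0.05 against control (y axis, bars from 0) when each library named on the x axis was left out. At 4 weeks the count runs from 0 to 7, and at 7 weeks from 3 to 7.

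Between durations, 5 of 8 were higher at 4 than at 2 weeks, where 3.14% of all genes were higher. These were the 5 integrin chains: ITGB2 by 3.45 ± 0.60 (adjusted p = 0.00886), ITGAX by 5.09 ± 0.85 (adjusted p = 0.00809), ITGAM by 3.02 ± 0.71 (adjusted p = 0.0265), ITGAL by 2.59 ± 0.63 (adjusted p = 0.0317) and ITGA4 by 1.57 ± 0.42 (adjusted p = 0.0472), on the log2 scale. VCAM1 (1.01 ± 0.34, adjusted p = 0.102), ICAM1 (0.65 ± 0.25, adjusted p = 0.153) and SELP (0.17 ± 0.46) did not pass. ITGB2 and ITGAX passed in all 8 fits that left out 1 library, and with the RN18S share as a covariate 0 of 8 passed. The RN18S share did not overlap between 4 weeks (0.282% to 0.516%) and 2 weeks (1.36% to 1.97%). It can hardly be told apart from duration in that fit.

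At 7 against 2 weeks 6 of 8 were higher, with 14.5% of all genes higher: ITGB2 by 3.10 ± 0.59 (adjusted p = 0.00275), ITGAX by 3.83 ± 0.82, ITGAM by 2.65 ± 0.70, ITGAL by 2.19 ± 0.63, ITGA4 by 1.42 ± 0.42 (adjusted p = 0.0234) and VCAM1 by 1.32 ± 0.34 (adjusted p = 0.0119). ICAM1 gave 0.67 ± 0.25 (adjusted p = 0.0564) and SELP 0.95 ± 0.46 (adjusted p = 0.136). With the cardiomyocyte marker score as a covariate 2 of 8 passed, ITGAX and ITGB2. The summed cardiomyocyte markers did not overlap between 7 weeks (9476 to 41645 CPM) and 2 weeks (1449 to 6478 CPM). The score can hardly be told apart from duration in that fit. Leaving out 1 library gave 4 to 7 of 8, and ITGAL was kept in 6 and ITGA4 in 5 of the 8 fits. From 4 to 7 weeks ITGAX gave -1.26 ± 0.70 (adjusted p = 0.457) and SELP 0.78 ± 0.46 (adjusted p = 0.481), the differences of the other 6 genes lay between -0.39 and 0.31, and the ranges of all 8 genes overlapped.

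A ratio of 2 genes in 1 library does not depend on the library total, except through the 0.5 CPM added to each gene. That addition shrinks log2 ratios where levels are low, as for ITGAX in controls. Against the controls, 4 ratios were compared at 3 durations, 12 exact permutation tests in all (two-sided, smallest possible p 0.0286 with 4 against 4 libraries). The log2 ratio of SELP to VCAM1, taken on CPM + 0.5, was -1.97 ± 0.50 (SD, n = 4) in controls, -3.24 ± 0.19 at 4 weeks and -2.81 ± 0.19 at 7 weeks. The groups did not overlap at 4 or 7 weeks, with an exact permutation p of 0.0286 at each, and the value adjusted over the 12 tests was 0.171. The log2 ratio of ITGAX to ITGAM was -0.44 ± 0.60 in controls, -1.01 ± 0.33 at 2 weeks, 0.50 ± 0.60 at 4 weeks (exact permutation p = 0.0857, adjusted 0.343) and -0.23 ± 0.28 at 7 weeks. The reads shared between both genes enter this ratio. VCAM1 to ICAM1 and ITGAL to ITGAM moved by at most 0.39 on the log2 scale at any duration, and no ratio passed after adjustment.

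**Figure D4:**
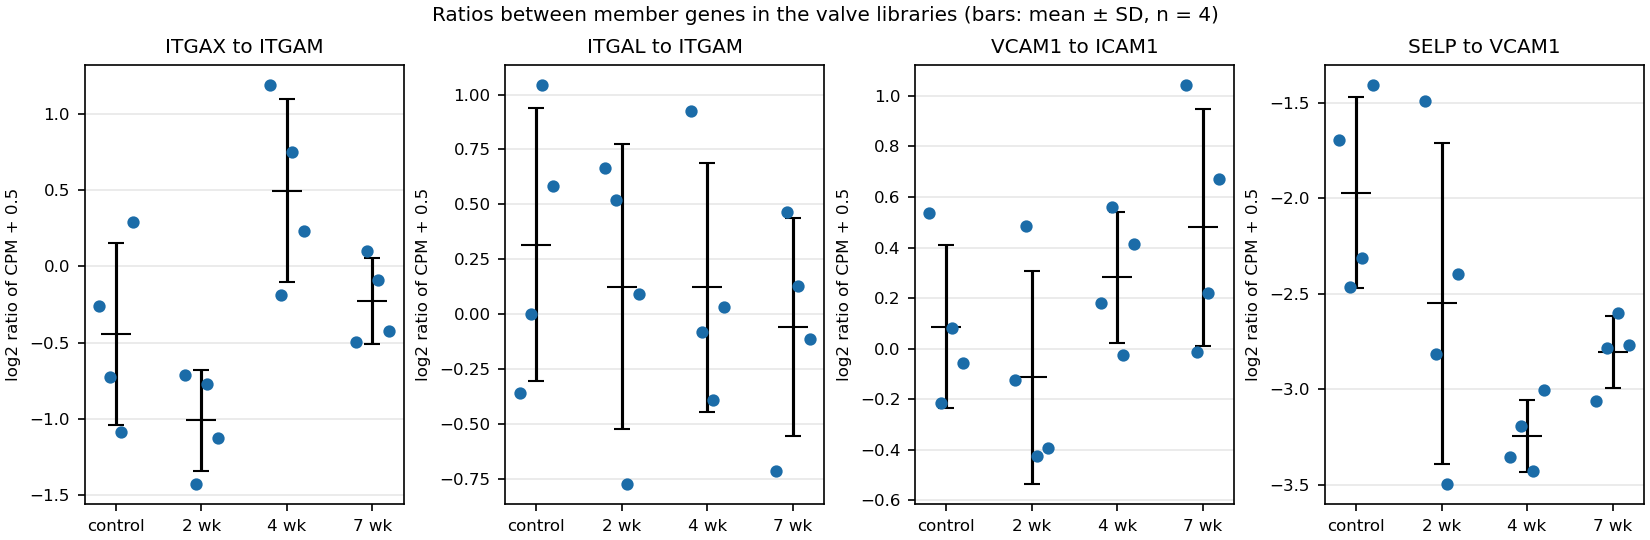
Log2 ratio of CPM + 0.5 for 4 pairs of genes in the 16 valve libraries, by duration; points are libraries and bars are the mean ± SD of 4. SELP to VCAM1 is lower in all 4-week and 7-week libraries than in any control.

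Other genes of the pathway were taken from lists by role. Of 17 tested genes that switch integrins on or carry their signal in leukocytes, none were lower. Their median log2 difference was 1.60 at 4 weeks and 1.72 at 7 weeks. Of the 17, 9 were higher at 4 weeks and 10 at 7 weeks, with 1.94% and 5.20% of all genes higher. They included FERMT3, kindlin-3, which binds the tail of ITGB2 and is needed for its activation, at 2.22 ± 0.46 (adjusted p = 0.0236) and 2.19 ± 0.46 (adjusted p = 0.0127). CORO1A, an actin regulator of leukocytes, gave 2.60 ± 0.42 and 2.51 ± 0.42, and DOCK2, which activates RAC proteins for migration, gave 2.00 ± 0.34 and 1.98 ± 0.34. The kinase SYK (2.34 ± 0.45 and 2.17 ± 0.45), which signals below bound integrins, also rose at both, as did MYO1F, a myosin of leukocytes (2.76 ± 0.48 and 2.60 ± 0.48). TLN1, talin, which binds integrin tails in nearly all cells, was not among those that rose and was lower at 7 than at 2 weeks by -1.30 ± 0.22 (adjusted p = 0.00159).

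Of 11 other adhesion and junction molecules of the vessel wall that were tested, 0 passed at 4 weeks, and at 7 weeks 1 rose and 1 fell. Of all genes, 1.94% were higher at 4 weeks, and 5.20% were higher and 2.60% lower at 7 weeks. The count of 1 of 11 in each direction is near the shares at 7 weeks. CX3CL1, a membrane-bound chemokine that catches monocytes, rose by 2.42 ± 0.48 (adjusted p = 0.00984), and ESAM, a junction protein of endothelium, fell by 0.52 with an SE of 0.14 (adjusted p = 0.0380). ICAM2, which resting endothelium carries, gave 0.57 ± 0.32 (adjusted p = 0.281). Of 11 genes listed for NF-kB and cytokine signalling, 2 rose at 4 weeks and 3 at 7 weeks. The NF-kB subunits and feedback inhibitors of this list passed at neither. CCL2, the chemokine that draws monocytes, rose by 2.42 ± 0.49 at 4 weeks and 1.73 ± 0.48 at 7 weeks, and the TNF receptors TNFRSF1B (0.93 ± 0.22 and 1.27 ± 0.22) and, at 7 weeks, TNFRSF1A (0.74 ± 0.17) rose with it. Of the other leukocyte integrin chains ITGB7 was the 1 of 4 tested that passed at 7 weeks, and 0 of 4 passed at 4 weeks.

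Markers of macrophages moved beside the integrins. Their summed level over 15 genes was 187 to 315 CPM in controls, 114 to 267 CPM at 2 weeks, 349 to 1497 CPM at 4 weeks and 859 to 1177 CPM at 7 weeks. Of 14 tested, 10 were higher at 4 weeks and 10 at 7 weeks, where 1.94% and 5.20% of all genes were. CD68, a lysosomal protein of macrophages, rose by 2.06 ± 0.39 and 2.35 ± 0.40 and the scavenger receptor MSR1 by 3.37 ± 0.58 and 2.87 ± 0.57. The 8 neutrophil markers in the tables summed to 2.19 to 4.37 CPM in controls, 3.69 to 21.8 CPM at 4 weeks and 9.07 to 30.4 CPM at 7 weeks, with MPO, a protein of their granules, at no more than 2 counts in any library. At 4 weeks 0 of the 4 that could be tested passed, and at 7 weeks, where 5.20% of all genes were higher, all 4 rose. These were S100A8 by 3.43 ± 0.93 (adjusted p = 0.0363), S100A9 by 2.63 ± 0.72 (adjusted p = 0.0378), CXCR1 by 2.17 ± 0.51 (adjusted p = 0.0201) and CXCR2 by 2.11 ± 0.52 (adjusted p = 0.0254). The 12 T and B lymphocyte markers summed to 4.84 to 10.9 CPM in controls, 2.80 to 13.6 CPM at 2 weeks, 7.52 to 30.7 CPM at 4 weeks and 13.7 to 21.5 CPM at 7 weeks. IL7R rose by 2.37 ± 0.54 at 4 weeks (adjusted p = 0.0367) and 2.33 ± 0.55 at 7 weeks (adjusted p = 0.0198). CD79A rose at 7 weeks by 2.75 ± 0.53 (adjusted p = 0.00880), and CD3D, CD3E, CD8A and LCK passed at neither. The part of each cell type in the change of the integrins was not tested.

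Endothelial markers, 11 genes in sum, ran from 351 to 600 CPM in controls, 266 to 653 CPM at 2 weeks, 348 to 626 CPM at 4 weeks and 571 to 1149 CPM at 7 weeks. None of the 11 changed at 4 weeks, and VWF alone rose at 7 weeks (1.34 ± 0.37, adjusted p = 0.0396), where 5.20% of all genes did. Erythroid markers summed to 16.2 to 52.5 CPM in controls and 40.7 to 179 CPM at 7 weeks, and 6 of 7 smooth muscle markers were lower at 7 weeks, where 2.60% of all genes were. Whether the number of endothelial cells or of blood cells in the cusps had a part in the values of VCAM1, ICAM1 and SELP was not tested.

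Across the 16 valve libraries the members with the closest patterns were ITGB2 and ITGAX (Pearson r = 0.976 on log2(CPM + 0.5), given as a description). Among the 5 integrin chains r ran from 0.893 to 0.976, VCAM1 and ICAM1 correlated at 0.908, and SELP correlated with the other 7 genes at 0.527 to 0.707. These libraries share groups and depth, so the values describe the pattern over time as much as the spread between animals. The genes most like ITGB2 were MYO1F (0.992), FERMT3 (0.990) and the phosphatase PTPN6 (0.990), and those most like ITGAL were FERMT3 (0.972), PLCB2 (0.969) and MYO1F (0.967). ITGAM was closest to PTPRC, the pan-leukocyte surface phosphatase CD45 (0.978), CTSS (0.977) and SYK (0.973). ITGAX was closest to IL1RN, the interleukin-1 receptor antagonist (0.986), CLEC5A (0.980) and GPR183 (0.979).

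ITGA4 was closest to LTA4H, an enzyme of leukotriene B4 synthesis (0.977), and the lysosomal genes TPP1 (0.964) and M6PR (0.964). VCAM1 was closest to the matrix protein TNC (0.967), GPR34 (0.962) and ADAM12 (0.960), and ICAM1 to the progranulin gene GRN (0.966), PLBD2 (0.959) and GMIP (0.955). The genes most like SELP followed it less closely: SEMA7A (0.852), EMCN, a sialomucin of endothelium (0.832), and BCAM (0.8287).

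In the ascending aorta 0 of 7 genes tested changed with the diet by edgeR, where 0.159% of 14435 genes did. ITGAX was too low to test there, with at most 6 counts in any library. Only 2 diet aortas were available, and by animal number 1 came from an animal whose valve was in the 2-week group. ITGB2 stood at 3.04, 3.35 and 1.70 CPM in controls and 2.88 and 3.37 CPM on the diet, a log2 difference of 0.26 ± 0.34 (adjusted p = 0.773). VCAM1 stood at 16.5, 9.93 and 6.16 CPM in controls and 11.6 and 10.4 CPM on the diet (0.08 ± 0.38), and ICAM1 at 19.6, 18.7 and 14.5 CPM against 16.1 and 18.3 CPM (0.02 ± 0.17). ITGAM, at 0.956, 0.497 and 0.486 CPM against 0.959 and 1.34 CPM, gave 0.89 ± 0.49 (adjusted p = 0.510), and ITGAL, at 0.869, 0.372 and 0.892 CPM against 0.192 and 0.318 CPM, gave -1.38 ± 0.67 (adjusted p = 0.470). The ranges of ITGAL did not overlap, and those of ITGAM were apart by 0.959 against 0.956 CPM only. ITGA4 gave 0.62 ± 0.39. SELP gave -1.01 ± 1.06, with control replicate 1 at 9.21 CPM and the other 4 aortas at 0.931 to 1.97 CPM. In the same library the endothelial sum was the highest of the 5 (374 CPM, against 132 to 149 CPM), and its part in the level of SELP was not tested.

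In the myocardium 0 of 8 changed by edgeR, where 0.0848% of 14151 genes did. ITGB2 stood at 3.51, 5.57 and 21.8 CPM in controls and 9.81, 7.76 and 11.3 CPM on the diet (0.12 ± 0.56). ITGAL stood at 1.505, 7.45 and 15.04 CPM against 4.79, 3.39 and 4.42 CPM (-0.72 ± 0.63), so that the controls spread more widely than the diet group in both genes. ITGAM (0.91 ± 0.50, adjusted p = 0.704), ITGAX (1.12 ± 0.74) and SELP (1.52 ± 0.75, adjusted p = 0.644) had positive differences, and SELP rests there on 2 to 37 counts. VCAM1 stood at 6.88, 7.52 and 16.3 CPM against 9.76, 21.5 and 8.28 CPM (0.49 ± 0.40), and ICAM1 at 7.45, 12.96 and 20.98 CPM against 14.6, 12.9 and 11.02 CPM (0.07 ± 0.33). ITGA4 gave -0.20 ± 0.46. All 8 genes overlapped between the groups.

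Whether the diet effect differed between tissues was tested directly. For the 7-week valve against the myocardium 0 of 8 differed by edgeR, where 0.639% of 16581 genes did. That fit took all libraries as independent, though 5 animals gave both a valve and a myocardium library. ITGAL gave a difference of 3.16 ± 0.99 on the log2 scale (adjusted p = 0.141) and ITGB2 of 2.82 ± 0.89 (adjusted p = 0.143), both larger in the valve, and with DESeq2 these 2 passed. For the mean of the valve durations against the aorta 0 of 8 differed, where 0.0474% of 16866 genes did, with ITGAL at 3.19 ± 1.19 (adjusted p = 0.473) and ICAM1 at 0.92 ± 0.36 (adjusted p = 0.479). That mean takes in the 2-week valves, where none of the 8 changed against control.

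In animals on normal chow the 8 genes were also compared between tissues. Any batch that goes with tissue cannot be told apart from it in these comparisons. The RN18S share was 0.476% to 2.06% in control valves, 2.96% to 6.27% in control aortas and 1.34% to 2.22% in control myocardia. Against the control valve, the control aorta was lower in 1 of 8, near the 14.2% of all genes that were lower: VCAM1 differed by -1.51 ± 0.39 (adjusted p = 0.00952). Without aorta control replicate 3, 0 of 8 passed. The control myocardium was lower than the valve in 3 of 8, with 23.2% of all genes lower, and higher in 1 of 8, with 21.4% of all genes higher. The 3 were SELP (-3.85 ± 0.69, adjusted p = 0.000200), VCAM1 (-1.39 ± 0.40, adjusted p = 0.00921) and ICAM1 (-0.81 ± 0.30, adjusted p = 0.0352), and the 1 was ITGAL (2.04 ± 0.70, adjusted p = 0.0224). Of the 7 fits that left out 1 library, SELP passed in 7, VCAM1 in 6, ITGAL in 5 and ICAM1 in 2. ITGAL did not pass without valve control replicate 2 or myocardium control replicate 3 (1.31 without the latter), nor in limma with the animal as a block, where 3 of 8 passed. In myocardium control replicate 3 the summed T and B lymphocyte markers were 30.3 CPM, against 3.86 and 5.61 CPM in the other 2 control myocardia, and their part in the level of ITGAL was not tested.

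SELP stood at 0.717, 0.134 and 0.588 CPM in the control myocardium against 4.61 to 16.7 CPM in the control valve. The endothelial sum was 927 to 1788 CPM in the control myocardium and 351 to 600 CPM in the control valve. The part of endothelial cells in the level of SELP was not tested. Between the other tissues, 4 of 8 genes differed, near the 52.3% of all genes that did. The control aorta was above the myocardium in SELP (2.63 ± 0.96, adjusted p = 0.0382), a call kept in 2 of 6 fits that left out 1 library; the difference was 0.77 without aorta control replicate 1. It was below the myocardium in ITGAL (-3.74 ± 0.68, adjusted p = 0.000861), ITGB2 (-2.14 ± 0.54, adjusted p = 0.00644) and ITGA4 (-1.47 ± 0.44, adjusted p = 0.0149). Without myocardium control replicate 3, the library with the highest ITGAL and ITGB2, 2 of 8 passed in that comparison, ITGAL and ITGB2.

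Over all 8 groups, the 4-week and 7-week valves held the 2 highest means of each of the 8 genes, and those 2 groups overlapped in each. For SELP the 4-week mean of 9.41 CPM was hardly above that of the control valves, 8.99 CPM. The step from the 7-week valve to the next group was free of overlap for ITGB2 (54.5 CPM and above, against at most 21.8 CPM in control myocardium), ITGAM and ITGAX. For VCAM1 and ICAM1 the free step lay between the control valve and the other tissues: the lowest control valve had 26.5 CPM of VCAM1 and 25.2 CPM of ICAM1, and the highest library of the next group had 21.5 and 19.6 CPM. For SELP neighbouring groups overlapped at every step of the order.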

How the data were processed

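RNA was extracted with Trizol and sequenced as single-end reads on an Illumina instrument after a directional kit, per the labels' protocols. The values are expected counts per gene (estimated counts, as RSEM gives them), deposited by the authors as 1 table per tissue plus a valve table from which genes they named as myocardial were taken out (31000 of 31346 genes). Named without their roles, per the submitters' processing notes, are STAR 2.7.8a and RSEM 1.3.3, then FastQC 0.11.9, edgeR 3.42.4 and Trim Galore 0.6.6. Which build and annotation served, and whether counting used strand, is not given in the sources used here; reads of a gene and its antisense partner cannot be told apart.

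Counts (10.12% of valve values were not whole) were rounded and fitted in R 4.3.3 with edgeR 4.0.16, after filterByExpr by group (minimum count 10, minimum total 15), with TMM scaling and the two-sided quasi-likelihood F test. The SE is the log2 fold change divided by the square root of F. The 16 valve libraries shared 1 fit; aorta and myocardium had their own, and comparisons between tissues used joint fits. Totals of 8.46 to 19.999 M counts limit precision for genes near 1 CPM, and intervals cover counting and replicate spread as the fit models them. Replicates differed from each other beyond sampling noise.

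The 8 genes, the gene lists and the tests were chosen with earlier results of these data known. The genes named were all 8 in each comparison, at most 6 passing genes per other list by smallest adjusted p, SELE, and, for each of the 8, the 3 genes of at least 5 CPM with the highest correlation over the valve libraries; TLN1, ICAM2, ITGB1 and the cell type markers were named for their roles after their values were seen. Alternatives were RLE scaling, DESeq2 1.42.0, limma 3.58.1 with the animal as a block, no filter, the authors' filtered table, the compared libraries alone, covariates, the replicate block and leaving out each library. The RN18S covariate and leaving out 2 libraries together were chosen after seeing the data. Gene order was read from the RefSeq table of mOryCun1.1. Scripts were tested on simulated data.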

Additional observations from a re-analysis of the deposited data

Results flagged for a closer look

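Of 32 sets of 4 valve libraries examined (8 genes in 4 groups), 2 held a library far from the other 3. In both it was control replicate 1, at 4.62 CPM of ITGAM and 55.3 CPM of VCAM1, each the highest of the 4 controls. The gap to the nearest control was 0.863 of the group's range for ITGAM and 0.960 for VCAM1, above Dixon's 95% critical value for 4 samples, which chance passes in about 1 of 20 groups. Without this library 6 of the 8 genes rose at 4 weeks and 6 at 7 weeks.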

How the results depend on the processing

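The number of the 8 genes that passed was recomputed under each alternative. At 4 weeks against control it was 5, and 0 with the 8 compared libraries only, 0 with the cardiomyocyte score as a covariate, 0 with the RN18S share as a covariate and 3 with both doubted libraries left out. At 4 against 2 weeks it was 5, and 2, 3 and 0 with the first 3 of these, and at 7 against 2 weeks 6, and 2 with the cardiomyocyte score. The RN18S share at 4 against 2 weeks did not overlap, nor did the summed cardiomyocyte markers at 7 against 2 weeks. In those fits the covariate can hardly be told apart from duration. DESeq2 gave 3 in place of 1 for control aorta against valve, and 2 in place of 0 for the difference between valve and myocardium. Leaving out 1 library gave 0 to 7 at 4 weeks, 3 to 7 at 7 weeks, 2 to 7 at 4 against 2 weeks and 4 to 7 at 7 against 2 weeks. It gave 0 to 2 for control aorta against valve, 2 to 4 for control myocardium against valve and 2 to 4 for control aorta against myocardium. Each such fit has fewer samples, and the cause of the shifts was not tested.

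With the replicate number as a block, 0 of 8 passed at 4 against 2 weeks. The numbers gave no sign of pairing: 1 of 17 libraries correlated best with its own number in the other group, and the same-number correlations ran from -0.49 to 0.16. With the animal as a block the count for control myocardium against valve was 3.

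The sign turned in these cases, none of which passed in either fit: ITGAX at 2 weeks (0.33) and from 4 to 7 weeks (1.10) with the RN18S share as a covariate, ITGAX in control aorta against myocardium (-1.65 to 0.41 over the left-out libraries), SELP in the valve and myocardium difference (-1.26 to 0.015) and SELP in the valve and aorta difference (-0.82 to 1.51). Among all refits, 52 other fold changes and 3 ratios also changed sign; none passed in either fit, and each had been within 1 SE (for a ratio, 1 control SD) of 0 at the start. With 4 against 4 libraries and 12 tests the ratios could hardly pass after adjustment, so their not passing says nothing of stability. Depth limits ITGAX, SELE and, in aorta and myocardium, SELP.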
